A study of Mus musculus with 6 samples.

Results

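Glucose that enters a cell is phosphorylated, split and oxidised to pyruvate by glycolysis, and pyruvate is either reduced to lactate or passed to the mitochondria through the pyruvate dehydrogenase complex. Glucose-6-phosphate can instead be stored as glycogen or enter the pentose phosphate pathway, which supplies NADPH and ribose phosphate. Many glycolytic steps are served by several isoforms encoded by separate genes, and a number of these genes are textbook targets of the hypoxia-inducible factors, which are degraded when oxygen is plentiful. The genes described here are the enzymes, transporters and regulators of these routes, 44 genes chosen by name and read from the deposited gene tables by an exact match of the symbol. Of the 44 genes, 43 had a row among the 25330 genes listed. Ppp1r3c, which encodes a subunit that brings a phosphatase to glycogen, was not analysed here.

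The libraries came from AML12 cells, a wild-type mouse hepatocyte line that was established from a transgenic mouse carrying transforming growth factor alpha and was grown with serum, insulin-transferrin-selenium and dexamethasone. There were 3 Control libraries of cells kept at 21% oxygen and 3 H/R libraries of cells held at 1% oxygen for 6 h, in a medium free of serum and glucose, and then reoxygenated for 2 h. Oxygen and medium changed together, so low oxygen and the loss of glucose and serum cannot be told apart, and no library was made at the end of hypoxia. The sources do not say whether the replicates were separate cultures, so p-values rest on the spread between these libraries, which may be technical. For each pair of libraries in a group, the squared difference in counts was set against that of sampling alone. The ratio was 15.5 and 16.2 for Control replicate 1 against replicates 2 and 3, and 5.6 between replicates 2 and 3. Among the H/R pairs it lay between 2.19 and 3.35. Total counts lay between 20438746 and 21854790 per library. All 11 hepatocyte markers listed reached 10 counts in some library and summed to 2475 to 2686 RPKM in Control and 3712 to 3741 RPKM in H/R, a sum made up mostly of Krt8 and Krt18. Hnf4a was lower in every H/R library (20.6 RPKM in each) than in any Control library (28.2 to 31.2 RPKM). Alb (132 to 542 counts in Control, 31 to 43 in H/R), Ttr (181 to 423 and 16 to 51), Trf (390 to 503 and 117 to 176) and Apoa1 (106 to 193 and 47 to 100) were lower as well. Apoe overlapped between the groups, with 433, 154 and 161 counts in Control and 182, 160 and 224 in H/R. Serpina1a, Fgb and Cyp2e1 had 45 to 61 counts in Control replicate 1 and at most 1 elsewhere. A set of 59 genes had at least 10 counts in that library and at most 2 in each of the others, and 0 of the 43 genes described here were among them. The biliary markers Krt19, Krt7 and Sox9 summed to 534 to 609 RPKM in Control and 1009 to 1061 RPKM in H/R libraries, endothelial and stellate cell markers were near 0, and of the 4 macrophage and leukocyte markers only Cd68 exceeded 3 counts in a library (16 to 22 in Control and 113 to 137 in H/R). RPKM, the deposited level per length, is the count divided by gene length and library total. The part of these marker differences in the results was not tested.

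Of the 43 genes, 37 had enough counts to be tested with edgeR's quasi-likelihood test. In what follows a gene rose or fell when its p-value, adjusted by the Benjamini-Hochberg method over all 14020 genes tested, was under 0.05, and it is called 2-fold when its fitted fold change was also at least 2. After H/R, 10 genes were 2-fold higher and 1 was 2-fold lower, beside 4.25% higher and 4.27% lower among all genes tested. The 10 were Slc2a1, Hk1, Hk2, Pfkl, Pfkp, Pfkfb3, Eno2, Pdk1, Gys1 and Gbe1, and the lower gene was Pfkfb1. Without the fold threshold, 23 genes rose and 8 fell, where 31.0% of all genes tested rose and 31.8% fell. These were 62.2% and 21.6% of the 37 genes. The number of genes whose libraries did not overlap between the groups was also 23 higher and 8 lower, beside 32.5% and 33.5% of all genes. In libraries of bulk RNA, a lower count of a gene in each cell and fewer cells that use it cannot be told apart. The median log2 fold change was 0.40 over the 37 genes and −0.01 over all genes tested. When libraries were scaled by their totals alone, the median over all genes was −0.12 and the median of the 37 genes was 0.29, with 21 genes higher and 10 lower.

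**Figure D1:**
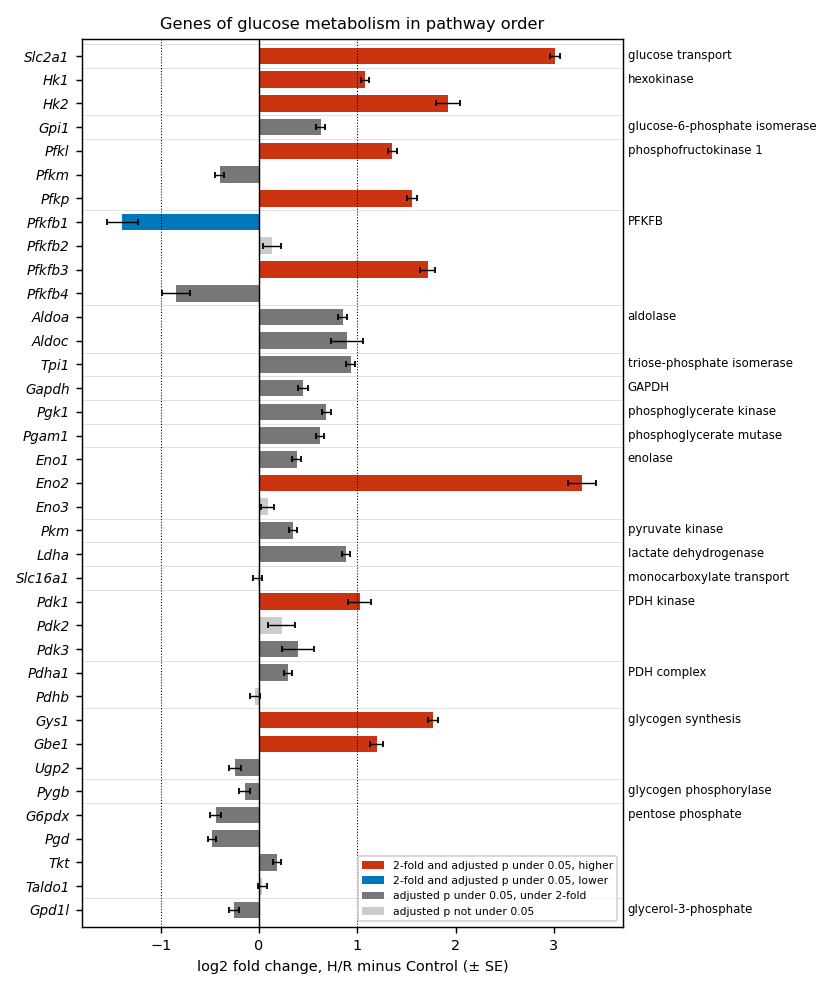
Log2 fold change (H/R minus Control, horizontal axis) of the 37 genes tested, in pathway order from glucose transport at the top, with standard errors as bars and dotted lines at 2-fold. Red and blue bars are 2-fold higher and lower, dark grey bars passed the adjusted p alone and light grey bars did not; Eno2 and Slc2a1 reached the longest bars, at 3.29 and 3.01.

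The core of the hypoxia response element, to which hypoxia-inducible factors bind, was looked for as ACGTG or GCGTG on either strand of the RefSeq promoters of the mouse build GRCm38.p6, each from 250 bases before to 50 bases after an annotated start. CACGTG holds ACGTG on both strands and was also counted apart. Promoters of 42 of the 44 genes were matched by symbol, 63 in all, and 47 of these (74.6%) held the core, beside 43.8% of the 32851 promoters of all genes. Promoters of the genes were richer in G and C (median 60.7%, all genes 52.7%), and among all promoters in the range of GC content between the quartiles of these, 60.4% held the core. Within the 44 genes, the core was in 72.7% of 33 promoters of genes that rose and in 76.7% of the 30 others. These others belong to genes that fell or did not pass the test, and also to genes not tested and to Ppp1r3c. CACGTG was in 12.7% of the 63 promoters, 7.15% of all and 10.1% of those in that GC range, and within the 44 genes in 6.06% of promoters of genes that rose and 20% of the others. Of the 10 genes called 2-fold higher, 7 had the core in at least 1 promoter, and Eno2, Gys1 and Gbe1 did not. Counted in the same way, 37 of the 42 genes with a matched promoter and 18 of the 23 that rose had it. Of the 13 promoters of the 10 genes, 61.5% held the core, close to the 60.4% of all promoters in that GC range. Here 6 sequences are shown 5′ to 3′ on the strand of the gene with the core in capitals (CACGT and CACGC are the core read on the other strand): the glucose transporter with the second smallest p of all genes, the phosphofructokinase and PFKFB isoforms that led after H/R, lactate dehydrogenase A, the enolase that rose most but held no core, and the first enzyme of the pentose phosphate pathway, which held the core and fell. For Pfkfb3 and Ldha the promoter with more matches is shown, and only that one holds CACGTG. With CACGTG counted on both strands, it has 4 matches against 1 in the other promoter of Pfkfb3, and 7 against 2 for Ldha. A match of 5 letters is a description of the window and not a shown binding site.
Slc2a1, chr4:119108495-119108794 (+ strand): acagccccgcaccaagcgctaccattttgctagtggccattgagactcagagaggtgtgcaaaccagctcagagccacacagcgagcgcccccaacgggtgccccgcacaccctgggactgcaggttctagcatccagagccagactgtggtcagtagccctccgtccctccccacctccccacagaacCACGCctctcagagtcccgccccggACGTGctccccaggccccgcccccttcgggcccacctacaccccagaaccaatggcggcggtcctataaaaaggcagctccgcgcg
Pfkl, chr10:78009758-78010057 (− strand): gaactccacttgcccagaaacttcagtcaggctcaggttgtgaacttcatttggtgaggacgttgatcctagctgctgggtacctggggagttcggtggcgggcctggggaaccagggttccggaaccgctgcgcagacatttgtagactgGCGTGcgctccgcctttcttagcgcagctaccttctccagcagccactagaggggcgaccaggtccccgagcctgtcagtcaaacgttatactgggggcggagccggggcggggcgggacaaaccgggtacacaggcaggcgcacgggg
Pfkfb3, the second of 2 promoters, chr2:11502041-11502340 (− strand): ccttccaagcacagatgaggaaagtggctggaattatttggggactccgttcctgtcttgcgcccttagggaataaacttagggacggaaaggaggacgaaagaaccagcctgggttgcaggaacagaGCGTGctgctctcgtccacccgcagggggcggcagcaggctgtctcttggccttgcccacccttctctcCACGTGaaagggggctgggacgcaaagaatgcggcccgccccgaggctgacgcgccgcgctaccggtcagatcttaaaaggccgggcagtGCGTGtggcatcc
Ldha, the first of 2 promoters, chr7:46845554-46845853 (+ strand): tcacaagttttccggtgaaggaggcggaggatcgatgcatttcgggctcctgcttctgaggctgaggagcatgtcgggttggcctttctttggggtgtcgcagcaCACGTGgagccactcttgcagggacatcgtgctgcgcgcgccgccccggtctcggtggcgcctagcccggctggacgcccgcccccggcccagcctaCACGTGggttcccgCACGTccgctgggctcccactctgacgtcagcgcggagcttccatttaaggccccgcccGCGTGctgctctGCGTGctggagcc
Eno2, chr6:124769624-124769923 (− strand): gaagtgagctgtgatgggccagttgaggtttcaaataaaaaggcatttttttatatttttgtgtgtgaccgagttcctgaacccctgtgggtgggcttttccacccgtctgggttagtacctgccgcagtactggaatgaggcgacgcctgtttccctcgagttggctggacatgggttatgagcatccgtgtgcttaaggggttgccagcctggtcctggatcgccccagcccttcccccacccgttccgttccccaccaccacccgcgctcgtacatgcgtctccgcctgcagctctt
G6pdx, chrX:74428831-74429130 (− strand): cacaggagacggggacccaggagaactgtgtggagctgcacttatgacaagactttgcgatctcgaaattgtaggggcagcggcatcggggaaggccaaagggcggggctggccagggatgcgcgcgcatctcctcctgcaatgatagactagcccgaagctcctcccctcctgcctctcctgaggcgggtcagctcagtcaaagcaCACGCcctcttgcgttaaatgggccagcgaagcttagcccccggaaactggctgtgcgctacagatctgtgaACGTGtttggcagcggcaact

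Glucose entry showed the second smallest p-value of the whole table. Slc2a1 (chr4:119108711-119137983), the basal glucose transporter GLUT1, had normalized counts of 789.7, 772 and 803 in the Control libraries and 6134, 6473 and 6466 in the H/R libraries. It was 8.06-fold higher (log2 fold change 3.01 ± 0.047 SE, edgeR adjusted p = 7.64e-33), with no overlap between groups. Normalized counts are raw counts scaled by TMM to the average size of the 6 libraries, and they serve to compare libraries within a gene. Per length, Slc2a1 stood at 11.0 ± 0.353 RPKM in Control and 82.6 ± 3.04 RPKM in H/R (SD, n = 3 each). Slc2a3, the high-affinity transporter GLUT3, had 0 to 3 counts per library and was not tested, so that Slc2a1 made up at least 99.9% of the summed RPKM of the pair in every library. From the list of other pathway genes, Slc2a2, the transporter typical of liver, was near the limit of detection with normalized counts of 38.8, 23.4 and 33.9 in Control and 9.69, 12.9 and 21.0 in H/R. It was 2.18-fold lower (log2 fold change −1.12 ± 0.31, edgeR adjusted p = 0.00188). Its log2 fold change was −0.96 without Control replicate 1 and −0.90 without H/R replicate 1, which ended the 2-fold call.

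Both hexokinases, which trap glucose as glucose-6-phosphate, rose. Hk1 (chr10:62268855-62379908), the isoform of most tissues, had normalized counts of 5563, 5685 and 5612 in Control and 11953, 12067 and 11535 in H/R. It was 2.11-fold higher (log2 fold change 1.08 ± 0.042, edgeR adjusted p = 1.88e-21). Hk2, the insulin- and hypoxia-responsive isoform, had 69.1, 61.4 and 72.5 in Control and 246.6, 271 and 254 in H/R. Its fold change of 3.79 was larger (log2 fold change 1.92 ± 0.12, edgeR adjusted p = 6.17e-16), yet its level stayed low. Per length, Hk1 held 98.3% ± 0.153 of the summed RPKM of the pair in Control and 97.0% ± 0.126 in H/R (exact two-sided permutation p = 0.1, the smallest that 3 against 3 libraries allow, and 0.173 adjusted over 26 shares). With libraries scaled by their totals the log2 fold change of Hk1 was 0.97, which ended its 2-fold call. Of the other glucose kinases listed, Hkdc1 did not pass the test (log2 fold change −0.21 ± 0.20, edgeR adjusted p = 0.382) and the ADP-dependent Adpgk fell by 0.41 on the log2 scale (edgeR adjusted p = 1.33e-05).

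**Figure D2:**
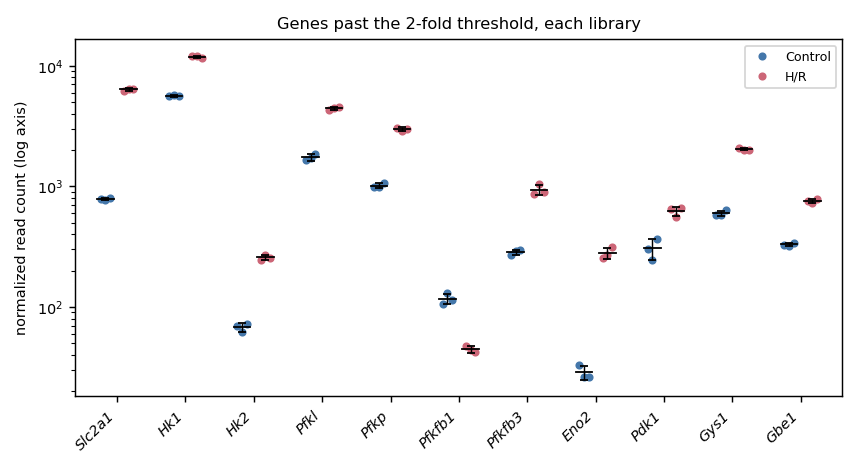
Normalized read count (vertical log axis) of the 11 genes called 2-fold, with 1 point per library, the group mean as a line and the SD as a bar (n = 3). Blue Control and red H/R points do not overlap for any of the 11 genes, and Pfkfb1 is the 1 gene whose H/R points lie below.

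At phosphofructokinase 1, which commits fructose-6-phosphate to glycolysis, the isoforms moved in opposite directions. Pfkl (chr10:77986947-78010083), the liver isoform, had normalized counts of 1638, 1728 and 1847 in Control and 4273, 4506 and 4545 in H/R, a 2.56-fold rise (log2 fold change 1.35 ± 0.047, edgeR adjusted p = 4.12e-23). Pfkp, the platelet isoform, had 996, 978 and 1071 in Control and 3073, 2889 and 2998 in H/R, a 2.94-fold rise (log2 fold change 1.56 ± 0.048, edgeR adjusted p = 2.29e-24). Pfkm, the muscle isoform, fell from 1611, 1549 and 1612 to 1202, 1217 and 1192 (log2 fold change −0.40 ± 0.048, edgeR adjusted p = 6.02e-09). None of the 3 isoforms overlapped between the groups. Per length the leading isoform changed. Pfkm stood at 26.3, 25.5 and 27.2 RPKM in Control and 18.4, 18.7 and 18.6 RPKM in H/R, and Pfkl at 18.0, 19.2 and 20.9 RPKM against 43.97, 46.5 and 47.6 RPKM. Pfkm made up 51.7% ± 1.40 of the summed RPKM in Control and 23.5% ± 0.452 in H/R, while Pfkl went from 38.0% ± 1.35 to 58.2% ± 1.06 and Pfkp from 10.4% ± 0.184 to 18.3% ± 0.783. Each of these shares separated the groups without overlap (exact two-sided permutation p = 0.1, adjusted 0.173). The lead of Pfkm in Control rests on dividing by gene length, since Pfkl had more counts than Pfkm in all 6 libraries.

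The PFKFB enzymes make and degrade fructose-2,6-bisphosphate, the strongest activator of phosphofructokinase 1, and 1 of their 4 isoforms came to lead after H/R. Pfkfb3 (chr2:11471433-11554077), the isoform with the highest ratio of kinase to phosphatase activity, had normalized counts of 269.9, 289.7 and 296 in Control and 866, 1041 and 900.4 in H/R. It was 3.28-fold higher (log2 fold change 1.71 ± 0.073, edgeR adjusted p = 2.91e-20). Pfkfb1, the isoform of liver and muscle, went from 106, 129.7 and 115 to 47.4, 44.2 and 42.0, a 2.62-fold fall (log2 fold change −1.39 ± 0.16, edgeR adjusted p = 3.17e-09). Pfkfb4, first described in testis and also known as hypoxia-inducible, fell by 0.85 on the log2 scale (SE 0.14, edgeR adjusted p = 3.50e-06), from 120 to 143 in Control to 64.0 to 78.6 in H/R. Pfkfb2, the heart isoform, did not pass the test (log2 fold change 0.14 ± 0.092, edgeR adjusted p = 0.207, with 0.195 of its exon length shared with other genes), although without Control replicate 2 it did (0.23, edgeR adjusted p = 0.0360). Per length, the 4 isoforms had similar shares in Control. Pfkfb2 held 28.0%, 31.1% and 30.0% and Pfkfb3 28.8%, 26.4% and 29.7% of the summed RPKM in Control replicates 1, 2 and 3, so their order did not differ beyond the spread. In the H/R libraries Pfkfb3 held 61.2%, 65.7% and 64.8%, and Pfkfb2 23.9%, 21.6% and 22.4%. Pfkfb1 dropped from 21.8% ± 0.461 to 5.75% ± 0.528 and Pfkfb4 from 20.2% ± 1.59 to 7.75% ± 0.773. Tigar, which also degrades fructose-2,6-bisphosphate, had a log2 fold change of 0.08 ± 0.060 and did not pass the test (edgeR adjusted p = 0.262).

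**Figure D3:**
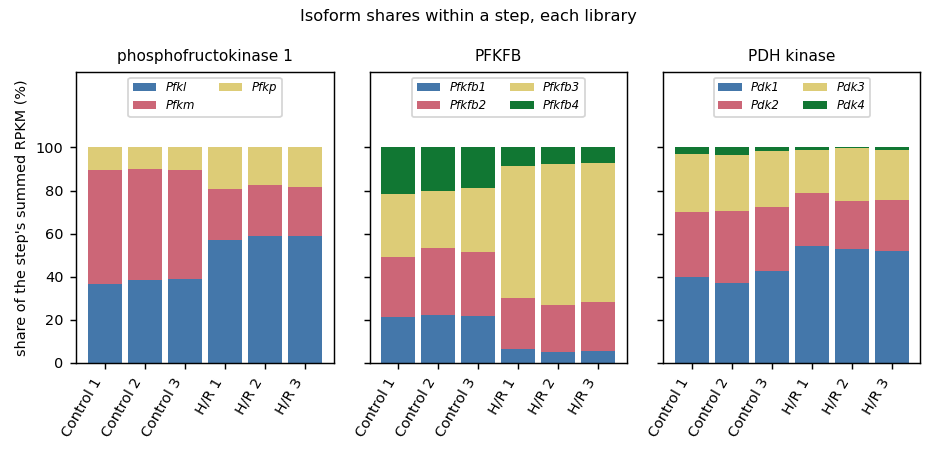
Share of the summed RPKM of a step (vertical axis, percent) taken by each isoform in each of the 6 libraries, for phosphofructokinase 1, PFKFB and pyruvate dehydrogenase (PDH) kinase. Pfkm gives way to Pfkl and Pfkp, Pfkfb3 goes from at most 29.7% to at least 61.2%, and Pdk1 from 37.2% to 42.5% in Control to 52.2% to 54.4% in H/R.

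Phosphofructokinase 1 aside, the 9 abundant enzymes that carry glucose-6-phosphate to lactate all rose, and none reached 2-fold. The isoforms of phosphofructokinase 1, which moved in opposite directions, are given above and are not among the 9. By size of the log2 fold change they were Tpi1 (triose-phosphate isomerase, 0.93), Ldha (0.88), Aldoa (aldolase A, 0.85), Pgk1 (phosphoglycerate kinase, 0.69), Gpi1 (glucose-6-phosphate isomerase, 0.63), Pgam1 (phosphoglycerate mutase, 0.62), Gapdh (0.45), Eno1 (enolase, 0.38) and Pkm (pyruvate kinase M, 0.35). Standard errors were 0.041 to 0.050 and the largest edgeR adjusted p was 2.48e-08, that of Pkm. Pkm, the enzyme with the highest level per length, stood at 532, 516 and 548 RPKM in Control and 630, 625 and 632 RPKM in H/R. Ldha, which reduces pyruvate to lactate and restores NAD+, stood at 112, 106 and 117 RPKM in Control and 190, 188 and 196 RPKM in H/R. Aldoa stood at 147, 145 and 166 RPKM against 254, 257 and 258 RPKM, and Eno1 at 183, 178 and 185 RPKM against 219, 225 and 218 RPKM. For each of the 9 genes the lowest H/R library was above the highest Control library, as for 32.5% of all genes tested. Summed, the 9 enzymes came to 1579 ± 68.2 RPKM in Control and 2200 ± 15.4 RPKM in H/R, a ratio of 1.39, where Slc2a1 alone rose from 11.0 to 82.6 RPKM. RPKM is scaled by library totals and not by TMM, so this ratio is not on the scale of the log2 fold changes.

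**Figure D4:**
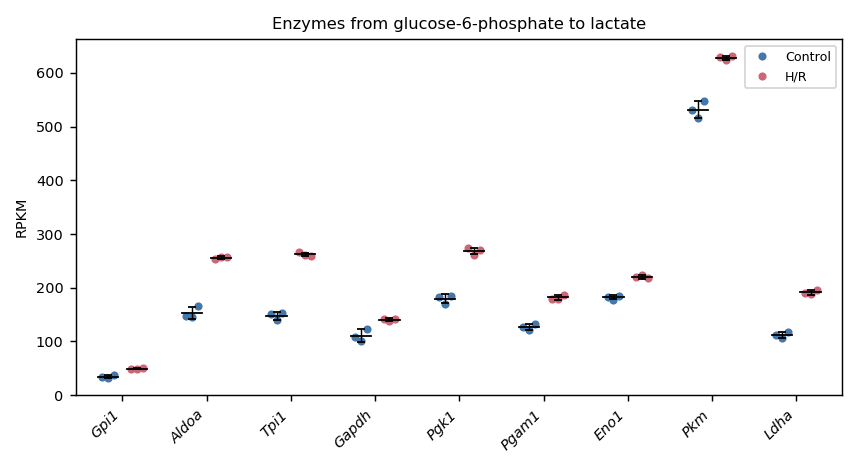
RPKM (vertical axis, from 0) of the 9 trunk enzymes in reaction order, without phosphofructokinase 1, with 1 point per library, the group mean as a line and the SD as a bar (n = 3). H/R points lie above Control points for each enzyme, and Pkm is higher than the others in both groups.

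Some of these genes have near-identical copies elsewhere in the genome, mostly processed pseudogenes, to which the counting could have assigned their reads. Gapdh had 77 copies among the GENCODE transcripts (at least 95% identity over 300 bases), and the 67 with a row held 85.1% as many counts as Gapdh itself. The copies of Gapdh went from 7910 ± 599.9 normalized counts in Control to 10931 ± 203 in H/R, a log2 ratio of 0.47. Gapdh with its copies had a log2 ratio of 0.46, against 0.45 alone. For Eno1, Pgam1 and Pgk1 the copies held 19.7%, 13.7% and 4.17% as many counts, and adding them gave log2 ratios of 0.38, 0.62 and 0.68. The rises of the 4 genes were thus nearly the same size with or without the copies. Exons of another gene overlap 0.115 of the exon length of Gpi1 and 0.153 of that of Pkm, so their values are uncertain to that extent. For the called genes the fraction was at most 0.065 (Gys1).

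The minor isoforms of the trunk behaved differently from each other. Eno2 (chr6:124760053-124769673), the neuronal enolase, had the largest fold change of all 37 genes, with normalized counts of 33.1, 26.3 and 26.4 in Control and 256, 268.5 and 315 in H/R. It was 9.75-fold higher (log2 fold change 3.29 ± 0.15, edgeR adjusted p = 5.60e-20). Its level remained small, at 0.297 ± 0.037 RPKM in Control and 2.71 ± 0.325 RPKM in H/R, which was 0.150% and 1.14% of the summed enolase RPKM. Eno3, the muscle enolase, held 7.79% ± 0.148 and 6.39% ± 0.338 of that sum and did not pass the test (log2 fold change 0.09 ± 0.065, edgeR adjusted p = 0.252), and its sign turned with libraries scaled by their totals (−0.02). Aldoc, the brain aldolase, rose 1.86-fold (log2 fold change 0.89 ± 0.16, edgeR adjusted p = 1.26e-05) and was 0.594% of aldolase RPKM in Control. Without Control replicate 1 its log2 fold change was 1.02, which made it 2-fold. Ldhb, the isoform that favours lactate oxidation, had 1 count in all 6 libraries together. Among the other pathway genes, the liver and red cell pyruvate kinase Pklr fell by 0.94 on the log2 scale (SE 0.067, edgeR adjusted p = 2.36e-14), and 0.220 of its exon length is shared with another gene. With libraries scaled by their totals its log2 fold change was −1.04, which made it 2-fold. RPKM uses that scaling, and Pklr went from 13.1 to 6.38 RPKM. Bpgm, which makes 2,3-bisphosphoglycerate from a glycolytic intermediate, was 2.42-fold lower (log2 fold change −1.28 ± 0.079, edgeR adjusted p = 5.56e-16), with normalized counts of 571, 574 and 539 against 225, 224 and 245.

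Of the 2 lactate transporter genes, 1 was tested and it did not pass the test. Slc16a1, which encodes the monocarboxylate transporter MCT1, had normalized counts of 2161, 2087 and 2237 in Control and 2152, 2242 and 2032 in H/R. The groups overlapped (log2 fold change −0.01 ± 0.047, edgeR adjusted p = 0.813), although with libraries scaled by their totals the gene passed the test as lower (−0.12, edgeR adjusted p = 0.0280). Slc16a3, the hypoxia-inducible exporter MCT4, had 5 to 10 counts in Control and 2 to 7 in H/R and was not tested. At this depth a change of Slc16a3 was not detectable. Bsg, which encodes the chaperone basigin that carries both transporters to the membrane, was 2.06-fold higher (log2 fold change 1.04 ± 0.047, edgeR adjusted p = 6.98e-20), with normalized counts of 9617, 8577 and 9401 against 19016, 19147 and 18762. Its log2 fold change was 0.94 when libraries were scaled by their totals and 0.996 without Control replicate 2, which ended the 2-fold call.

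Pyruvate dehydrogenase kinases switch off the entry of pyruvate into the citric acid cycle. Pdk1 (chr2:71873224-71903858), the isoform induced by hypoxia-inducible factor 1, had normalized counts of 305, 247 and 364 in Control and 649, 559.7 and 656 in H/R. It was 2.03-fold higher (log2 fold change 1.02 ± 0.12, edgeR adjusted p = 5.28e-06), without overlap. The 2-fold call was near the threshold, and leaving out 1 library moved the log2 fold change between 0.89 and 1.17. Pdk3 rose by 0.40 on the log2 scale (SE 0.16, edgeR adjusted p = 0.0316), but not with DESeq2 (adjusted p = 0.0809) or with other scalings. Pdk2 did not pass the test (0.23 ± 0.14, edgeR adjusted p = 0.152), and Pdk4, the kinase of fasting, had 7 to 11 counts in Control and 1 to 7 in H/R and was not tested. Pdk1 made up 39.9% ± 2.66 of the summed RPKM of the 4 kinases in Control and 53.2% ± 1.11 in H/R (exact two-sided permutation p = 0.1, adjusted 0.173). Of the subunits of the complex they act on, Pdha1 rose by 0.29 (SE 0.041, edgeR adjusted p = 1.13e-07, with 0.161 of its exon length shared) and Pdhb did not pass the test (−0.04 ± 0.054, edgeR adjusted p = 0.510), although it did with libraries scaled by their totals (−0.15, edgeR adjusted p = 0.0195). Among the other genes of the complex, the dihydrolipoamide dehydrogenase gene Dld rose by 0.42, whereas the acetyltransferase gene Dlat fell by 0.15 and Pdhx, which binds Dld to the core, fell by 0.17 on the log2 scale (edgeR adjusted p = 1.42e-10, 0.0306 and 0.0135). The phosphatase gene Pdp2, whose product switches the complex on, fell by 0.49 (edgeR adjusted p = 5.97e-06), and Pdp1 did not pass the test (0.16, edgeR adjusted p = 0.311). The mitochondrial pyruvate carrier genes Mpc1 and Mpc2 had log2 fold changes of 0.16 and −0.03 and did not pass the test.

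In glycogen metabolism, 2 of the 3 listed genes of synthesis were 2-fold higher and the phosphorylase gene was slightly lower. Gys1 (chr7:45434844-45456619), the muscle-type glycogen synthase, had normalized counts of 577, 577 and 632 in Control and 2068, 2016 and 2013 in H/R. It was 3.41-fold higher (log2 fold change 1.77 ± 0.053, edgeR adjusted p = 8.11e-25). The liver-type synthase Gys2 was not analysed here. Gbe1, the branching enzyme, had 325, 323 and 341 in Control and 758, 729 and 780.5 in H/R, and was 2.29-fold higher (log2 fold change 1.20 ± 0.067, edgeR adjusted p = 3.55e-17). Both genes separated the groups without overlap. Ugp2, which makes the UDP-glucose used by the synthase, fell by 0.24 (SE 0.061, edgeR adjusted p = 0.000855), so the 3 listed genes of synthesis did not move together. Pygb, the brain-type phosphorylase that breaks glycogen down, stood at 14.5, 14.1 and 14.8 RPKM in Control and 11.8, 13.1 and 11.7 RPKM in H/R. Its fall was small (log2 fold change −0.15 ± 0.052, edgeR adjusted p = 0.0136). The fall was not called with DESeq2 (adjusted p = 0.0592), without H/R replicate 3 (edgeR adjusted p = 0.104) or without H/R replicate 1. Pygl, the liver phosphorylase, had 7 counts in Control replicate 1, the library with traces of other liver transcripts, and 0 in the other 5. Ppp1r3b, the liver subunit that targets phosphatase to glycogen, had 4 to 15 counts and was not tested.

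Other glycogen genes were mixed. Stbd1, a glycogen-binding protein of intracellular membranes, was 3.55-fold higher (log2 fold change 1.83 ± 0.084, edgeR adjusted p = 1.23e-19), with normalized counts of 189, 175 and 159 against 620.4, 645 and 594. Glycogenin (Gyg), the primer of glycogen, rose by 0.48 on the log2 scale. The phosphorylase kinase genes Phka1, Phka2 and Phkb fell by 0.56, 0.27 and 0.26, whereas Phkg2 rose by 0.31 (edgeR adjusted p between 1.11e-06 and 0.0106 for these 4). Phkg2 encodes the catalytic subunit, and the 3 genes that fell encode regulatory subunits. Of the exon length of Phkg2, 0.219 is shared with another gene, so its rise is uncertain to that extent.

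Of the 4 listed enzymes of the pentose phosphate pathway 2 fell and 1 rose, each by less than 2-fold, and 1 did not pass the test. G6pdx (chrX:74409483-74429194), the rate-limiting first enzyme, had normalized counts of 1183, 1101 and 1112 in Control and 894, 799 and 811 in H/R, a fall of 26.3% (log2 fold change −0.44 ± 0.057, edgeR adjusted p = 2.63e-08). Pgd, the other NADPH-forming enzyme of the oxidative arm, fell from 6880, 6527 and 6341 to 4769, 4829 and 4602 (log2 fold change −0.48 ± 0.042, edgeR adjusted p = 5.42e-12). Neither gene overlapped between the groups, and 0.136 of the exon length of G6pdx is shared with another gene. H6pd, which carries out the first oxidation of the pathway in the endoplasmic reticulum, fell by 0.51 (SE 0.048, edgeR adjusted p = 2.88e-11). Pgls, the lactonase between G6pdx and Pgd, did not pass the test (−0.16 ± 0.098, edgeR adjusted p = 0.166). In the non-oxidative arm, the transketolase gene Tkt rose by 0.18 (SE 0.042, edgeR adjusted p = 0.000359), but not with libraries scaled by their totals (0.08, edgeR adjusted p = 0.0875). The transaldolase gene Taldo1 did not pass the test (0.03 ± 0.044, edgeR adjusted p = 0.523), and its sign turned under that scaling (−0.07). Rpia and Rpe, which interconvert the pentose phosphates, rose by 0.48 and 0.26 on the log2 scale (edgeR adjusted p = 1.07e-06 and 0.00211). The 4 listed enzymes summed to 188 ± 4.46 RPKM in Control and 167 ± 1.27 RPKM in H/R. RPKM is scaled by library totals and the fold changes by TMM, whose factors were 1.02 to 1.06 in Control and 0.96 to 0.97 in H/R. The H/R sum thus lies lower against Control in RPKM than it would in normalized counts, and part of its difference is scaling. Gpd1l, a glycerol-3-phosphate dehydrogenase that draws on a glycolytic intermediate, fell by 0.25 (SE 0.051, edgeR adjusted p = 6.89e-05).

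**Figure D5:**
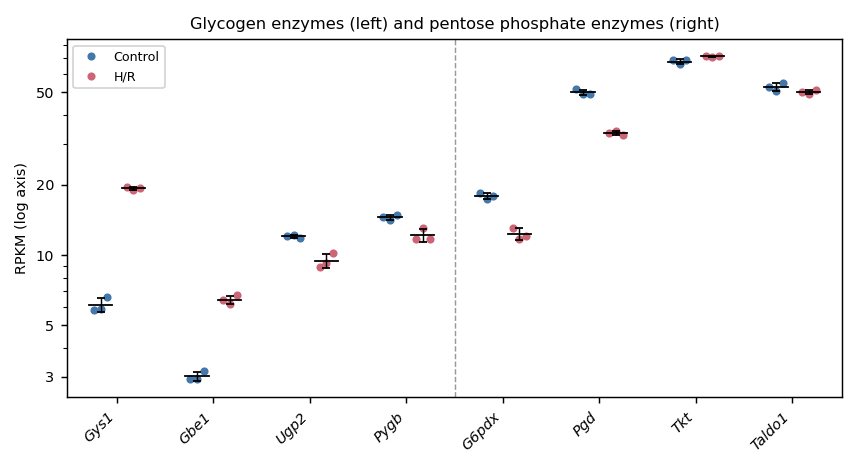
RPKM (vertical log axis) of 4 glycogen genes and 4 pentose phosphate genes, with 1 point per library, the group mean as a line and the SD as a bar (n = 3). Gys1 and Gbe1 lie higher in H/R, while G6pdx and Pgd lie lower and Tkt and Taldo1 differ little on this scale.

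Across all 10 steps with 2 or more listed isoforms, the isoform with the highest mean RPKM differed between the groups at 2 steps, phosphofructokinase 1 and PFKFB. At the other 8 steps the same isoform led in both groups, and at 7 of them it held over 90% of the summed RPKM. Of 26 isoform shares, 15 at 5 steps separated the groups without overlap, each with the smallest exact p of 0.1 that the design allows. Shares of a step add up to a fixed total, so they depend on each other, and Hk1 and Hk2 give 1 result. Among the levels of all genes tested, 32.5% were higher and 33.5% lower without overlap. Leaving out Control replicate 2 put Pfkfb3 ahead of Pfkfb2 in Control as well, so that only phosphofructokinase 1 changed its leading isoform.

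Beyond the 44 genes, 58 others of the same routes were listed, of which 48 had a row and 37 were tested. Of these 37, 2 were 2-fold higher (Stbd1 and Bsg) and 2 were 2-fold lower (Slc2a2 and Bpgm), where 4.25% and 4.27% of all genes tested were. Without the fold threshold 14 of the 37 rose and 14 fell, where 31.0% and 31.8% of all genes tested did. The median log2 fold change of the 37 was −0.03. Of 7 genes of gluconeogenesis, the route back to glucose, 4 were tested, of which 2 rose, 1 fell and G6pc3 did not pass the test (−0.08, edgeR adjusted p = 0.662). Pck1 had 28 counts in Control replicate 1 and at most 1 in the others, and Fbp1 had at most 4. The mitochondrial Pck2 rose by 0.39 and Pcx, pyruvate carboxylase, by 0.36 on the log2 scale (edgeR adjusted p = 2.43e-08 and 0.000639). The glucose-6-phosphate transporter gene Slc37a4 fell by 0.41 (edgeR adjusted p = 0.00274).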

How the data were processed

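RNA was extracted with TRIzol, made into stranded mRNA libraries and sequenced with paired ends. The authors trimmed reads with Trimmomatic 0.36 and mapped them to GRCm38 with software printed as STRA. Per the labels featureCounts (Subread 1.5.1) and edgeR 3.12.1 were used, and whether counting used strand is not given in the sources used here. The authors deposited, for each library, counts per gene without normalization and RPKM values, which could be recomputed from count, gene length and library total. The 44 genes, the other lists and the tests were chosen with earlier results of these data known.

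Counts were tested with edgeR 4.0.16 (filterByExpr, TMM, robust glmQLFit, glmQLFTest), 3 H/R against 3 Control libraries, with Benjamini-Hochberg adjustment over 14020 genes. The thresholds, adjusted p under 0.05 and 2-fold, are those of the study. The test was tried on simulated counts with the same dispersion for every gene, which cannot show how it does on these libraries. SE followed from the F statistic. Isoform shares of RPKM were compared by exact two-sided permutation. All 44 genes are accounted for by step, with values per library for genes called 2-fold and for leading isoforms. Copies were found with blastn 2.17.0 in GENCODE transcripts, and exon overlap with bedtools 2.31.1 from the deposited coordinates (GRCm38). Alternatives were DESeq2 1.42.0, other scalings and filters, a replicate block, limma 3.58.1 on log2(RPKM + 1) and log2(RPKM + 0.1), and leaving out each library. Replicate numbers did not pair the libraries (correlations of deviations −0.03, 0.005 and −0.01). Results of some other pathway genes are not reported here.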

Additional observations from a re-analysis of the deposited data

How the results depend on the processing

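Of the 11 genes called 2-fold, the count was 6 with limma on log2(RPKM + 1), and the calls lost were Hk1, Hk2, Pfkfb1, Pdk1 and Gbe1. It was 19 at a 1.5-fold threshold, and 6 of the 21 tested genes without shared exon sequence, a smaller set by construction. With library totals it was 9 (Hk1 and Pdk1 were lost), with upper quartiles 10 (Pdk1 was lost), with DESeq2 11, and 10 to 12 when a library was left out. The replicate block also gave 11 and changed no call. The count past the adjusted p was 31, it lay between 29 and 31 under the other fits, and it was 16 of the 21 genes without shared exon sequence. For the other pathway genes, 4 calls became 2 with log2(RPKM + 1) and 8 at 1.5-fold, and stayed 4 with upper quartiles or library totals, where Bsg was lost and Pklr gained. The count of steps with another leading isoform was 2, was 1 with shares of counts in place of RPKM, and lay between 1 and 2 when a library was left out. The signs of 4 genes that did not pass the test turned: Eno3 (−0.0177 with library totals, −0.0162 with log2(RPKM + 1) and −0.0171 with log2(RPKM + 0.1)), Taldo1 (−0.0367 with upper quartiles, −0.0714 with library totals, −0.0693 and −0.0705 with the RPKM fits), Slc16a1 (between −0.0494 and 0.0261 when a library was left out) and Pdhb (between −0.0744 and 0.0122). The cause was not tested. With 3 libraries a group, no isoform share could reach an exact p under 0.1, and the 6 genes with too few counts could not be compared at this depth.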
